A study of Mus musculus with 76 samples.

Results

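Immediate early genes are switched on within minutes of a stimulus, without new protein synthesis, and are switched off again soon after. The 10 genes described are Egr1, Fos, Fosb, Nr4a1, Btg2, Zfp36, Jun, Junb, Ier2 and Atf3, out of 20710 genes with a usable value on every array. They were picked by symbol, and for Fos, which had 10 features on the array, the feature with the highest mean over the 76 arrays was used. The features of Fos correlated with the chosen one at 0.964 or more. The set was chosen with earlier results of these arrays known, among them the differences with smoke and the variation between arrays, so those values are given as a description. Septa and vessel arrays of the same mouse numbers were also set against each other.

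In resting tissue the promoters of these genes are held ready by serum response factor with its ternary complex factors and by CREB, which MAP kinases and calcium or cyclic AMP signals activate. Egr1 and Nr4a1 bind DNA as a zinc finger factor and an orphan nuclear receptor. Fos, Fosb, Jun, Junb and Atf3 are leucine zipper factors of the AP-1 type, which bind DNA in pairs. Ier2 is a small nuclear protein of the same early class. Btg2 restrains proliferation and Zfp36, also known as tristetraprolin, speeds the decay of messages with AU-rich elements, early messages included. In lung the class is known to respond to stretch, oxidants, growth factors and to the handling of the tissue itself.

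Signals came from alveolar septa (39 arrays) and lung vessels (37 arrays) of 40 C57BL/6 mice. The mice were wild-type or carried the Noxo1(tm1881_17.2Arte) allele, which knocks out Noxo1, a gene whose protein organises the NOX1 oxidase complex. Smoke-exposed mice of either genotype breathed smoke of Kentucky 3R4F research cigarettes from week 12 of age, on 5 days a week with 6 hours each and 140 mg of particles per m3, and were compared with control mice of the same genotype after 3 or 8 months. Tissue, genotype, exposure and time made 16 groups of 4 or 5 arrays, and mouse 25, a wild-type control, gave 2 of the vessel arrays at 3 months. All values are log2 signals of single-colour arrays, so a difference of 1 is a doubling of signal, and the number of arrays and, for dim genes, the background limit the precision. In tissue RNA, fewer cells of a type and less RNA per cell cannot be told apart.

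The sequence before the start of transcription is shown for the 4 genes that differed between the tissues (Fosb, Nr4a1, Zfp36 and Jun) and for the 2 whose smoke and control values did not overlap in knockout septa (Fos and Btg2). Each is the 250 bases before the start in the direction of the gene, from RefSeq on build GRCm38.p6, and the capitals mark the motifs searched, on either strand. They lie at chr7:19310046-19310295 on the minus strand for Fosb, chr15:101266596-101266845 on the plus strand for Nr4a1, chr7:28379229-28379478 on the minus strand for Zfp36, chr4:95052223-95052472 on the minus strand for Jun, chr12:85473640-85473889 on the plus strand for Fos and chr1:134079156-134079405 on the minus strand for Btg2.
Fosb: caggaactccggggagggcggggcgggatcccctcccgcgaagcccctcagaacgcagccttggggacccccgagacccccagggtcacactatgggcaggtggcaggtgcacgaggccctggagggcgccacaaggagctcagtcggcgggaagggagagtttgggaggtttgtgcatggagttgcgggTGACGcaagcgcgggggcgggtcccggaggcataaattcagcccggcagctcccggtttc
Nr4a1: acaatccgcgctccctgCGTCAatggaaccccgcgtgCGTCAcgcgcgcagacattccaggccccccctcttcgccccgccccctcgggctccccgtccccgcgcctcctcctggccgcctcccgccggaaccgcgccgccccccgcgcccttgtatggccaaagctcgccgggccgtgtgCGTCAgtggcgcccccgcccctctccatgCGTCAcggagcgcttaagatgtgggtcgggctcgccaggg
Zfp36: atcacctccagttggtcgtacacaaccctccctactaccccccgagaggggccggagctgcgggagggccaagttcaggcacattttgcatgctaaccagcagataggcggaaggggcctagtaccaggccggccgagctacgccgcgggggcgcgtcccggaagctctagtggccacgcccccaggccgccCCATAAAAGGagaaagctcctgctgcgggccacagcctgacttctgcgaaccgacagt
Jun: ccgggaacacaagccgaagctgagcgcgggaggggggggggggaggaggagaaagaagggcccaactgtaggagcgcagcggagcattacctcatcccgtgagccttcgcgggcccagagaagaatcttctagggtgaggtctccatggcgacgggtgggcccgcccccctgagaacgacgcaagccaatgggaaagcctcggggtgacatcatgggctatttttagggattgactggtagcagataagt
Fos: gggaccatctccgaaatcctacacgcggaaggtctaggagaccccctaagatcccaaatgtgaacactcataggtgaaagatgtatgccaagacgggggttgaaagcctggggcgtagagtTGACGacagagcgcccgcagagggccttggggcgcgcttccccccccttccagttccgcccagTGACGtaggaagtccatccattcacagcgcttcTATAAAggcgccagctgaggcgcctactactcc
Btg2: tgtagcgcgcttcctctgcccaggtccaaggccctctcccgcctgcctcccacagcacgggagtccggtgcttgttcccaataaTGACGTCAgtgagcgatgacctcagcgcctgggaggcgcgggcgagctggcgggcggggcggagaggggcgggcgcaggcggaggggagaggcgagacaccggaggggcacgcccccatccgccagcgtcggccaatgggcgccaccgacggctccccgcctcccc
RefSeq windows were at hand for 8 of the 10 genes, and motifs were searched from 250 bases before to 50 after the start. The CREB core TGACG stood in 6 of the 8 windows (Btg2, Atf3, Fosb, Junb, Fos and Nr4a1), against 20.8% of 32851 mouse promoter windows of the same length. The 8 windows held 58.7% (Fos) to 72.3% (Nr4a1) G or C, against a median of 52.7% over all windows. The shares over all windows were not matched for this, and TGACG itself holds a CG. Nr4a1 held 4 copies, and Fos held 2, at 129 and 66 bases before the start. The full palindrome TGACGTCA, which overlaps the core, stood in Btg2 at 166 bases before the start and in 1.79% of all windows. A CArG box, the site of serum response factor, began 58 bases before the start of Zfp36 and is present in 1.63% of all windows. TATAAA was found in Fos and Junb (13.6% of all windows). In Fos it began 33 bases before the start, and in Junb it began at the start itself. The AP-1 motif TGANTCA (7.81% of all windows) and the EGR motif GCGTGGGCG (0.612%) were in none of the 8 windows, which says only that these letters are not there.

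The tissue and genotype labels were checked first. The 5 smooth muscle markers averaged 6.26 to 8.81 in septa arrays and 11.52 to 13.66 in vessel arrays, so the tissues did not overlap, and type 1 and type 2 pneumocyte markers were present in both. Noxo1 itself was weak: its signal was below 4.00, the 95th percentile of olfactory and vomeronasal receptor genes taken as background, in 20 of 20 knockout and 11 of 19 wild-type septa arrays, and in 16 of 18 knockout and 10 of 19 wild-type vessel arrays. The highest Noxo1 signal of all arrays, 7.03, was on the library labelled knockout control vessel at 8 months, replicate 4 (mouse 7), against a highest wild-type value of 6.69, which goes against its label. The septa array of the same mouse had 3.63. Whether the probe lies in the deleted part of the gene was not tested, so its signal is a weak check. Sex is not given in the labels used here, and the arrays fell into 2 classes by Xist, the RNA that coats the inactive X chromosome of female cells. Xist was 10.81 or higher in 14 septa and 12 vessel arrays and 4.95 or lower in the rest. Mouse 7, the same as above, and mouse 29, a wild-type control at 8 months, were high in 1 tissue and low in the other. Several results that include them are therefore also given without both. The share of arrays with high Xist signal differed between the groups, which bears on the values below.

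Egr1, Fos, Fosb, Nr4a1, Btg2, Zfp36 and Jun were above the receptor background on every array. Junb was below it on 9 septa and 8 vessel arrays, Ier2 on 7 and 7, and Atf3 on 1 and 4, so their low values have little order. The spread among arrays of 1 group was wide for most of the genes. Its median over the 10 genes was an SD of 1.02 in septa and 1.203 in vessels, against 0.74 and 0.99 over all genes. It was 0.63 and 0.94 over the 8170 genes at least as bright as the dimmest of the 10. In septa 8 and in vessels 7 of the 10 lay above the median of all genes. Zfp36 (0.51 and 0.65) and Jun (0.56 and 0.78) lay below it in both tissues.

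Among the transcription factors, Egr1 ran from a group mean of 13.79 ± 0.26 (SD, n = 5) in smoke-exposed wild-type septa at 3 months down to 11.73 ± 1.06 (SD, n = 5) in smoke-exposed knockout septa at 8 months. Nr4a1 had the same lowest group, at 10.38 ± 0.96 (SD, n = 5), and was highest in smoke-exposed wild-type vessels at 3 months, at 12.20 ± 0.35 (SD, n = 5). Fosb spanned the widest range of group means, from 7.70 ± 2.20 (SD, n = 5) in smoke-exposed knockout septa at 8 months to 12.64 ± 0.59 (SD, n = 5) in smoke-exposed wild-type vessels at 3 months. Fos was highest in knockout control septa at 8 months, at 11.28 ± 0.54 (SD, n = 5), and lowest in smoke-exposed knockout vessels at 3 months, at 8.96 ± 2.17 (SD, n = 5). The latter group was also the lowest for Btg2, Zfp36, Ier2 and Atf3, at 8.06 ± 1.70, 9.88 ± 1.04, 3.69 ± 1.94 and 5.25 ± 2.42 (SD, n = 5 each). Jun was highest in smoke-exposed wild-type septa at 3 months (10.34 ± 0.56, SD, n = 5) and lowest in smoke-exposed knockout vessels at 8 months (8.40 ± 0.51, SD, n = 4). Junb was the exception, with its highest mean in knockout control vessels at 8 months (7.41 ± 1.53, SD, n = 5) and its lowest in knockout control septa at 3 months (4.17 ± 1.19, SD, n = 5).

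With the 16 group means of a gene put in order, neighbouring groups hardly ever differed by more than their spread. The gap between neighbours exceeded the smaller of their SDs at 1 of 15 steps for Egr1, Fosb, Btg2, Zfp36 and Atf3, and at 0 of 15 steps for Fos, Nr4a1, Jun, Junb and Ier2. Putting 16 means in order makes such gaps small, so these counts do not show that groups far apart in the order are alike. The group means of Fosb spanned 4.94. For Fosb the step was between smoke-exposed wild-type vessels at 3 months and the next group, wild-type control vessels at 8 months (11.60 ± 1.04, SD, n = 5).

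**Figure D1:**
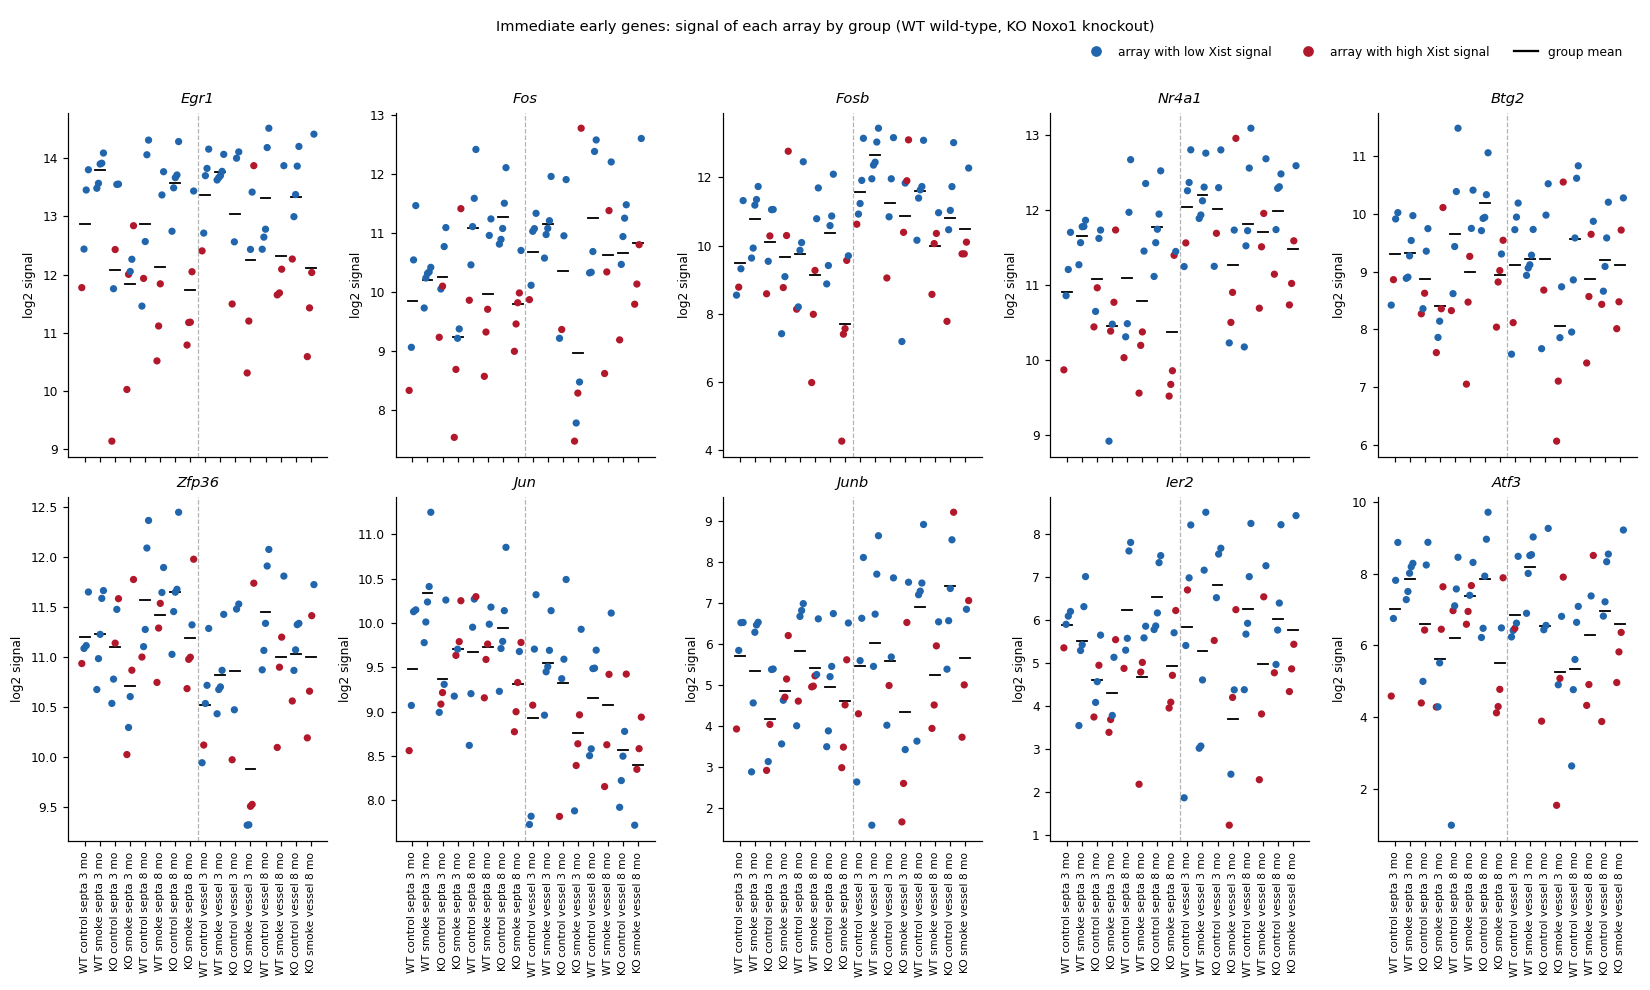
Log2 signal of each array for the 10 genes, by group on the horizontal axis (septa left and vessels right of the dashed line, WT wild-type, KO Noxo1 knockout), with points coloured by Xist class and a bar at the group mean. Arrays with high Xist signal sit low within many groups, as for Egr1, whose 14 such septa arrays have a median of 11.48 against 13.55 for the other 25.

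The tissues were compared with limma over all 76 arrays, with the mouse as a random block. The block used 1 correlation for all genes, 0.0262. Between the tissues of a mouse the 10 genes had r from -0.10 (Junb) to 0.83 (Egr1) after group means were subtracted. For those with a high r the fit made little use of the pairing, so their intervals may be too wide. Fosb and Nr4a1 were higher in vessels, and Jun and Zfp36 were lower. With 4 of 10 genes past an adjusted p of 0.05, the share has to be read against 28.9% of all genes tested (12.7% in the higher and 16.2% in the lower direction). Fosb ranged from 4.27 over a median of 9.63 to 12.76 in septa and from 7.19 over 11.39 to 13.44 in vessels. The ranges overlapped, and the fitted difference was 1.53 (SE 0.34, 95% interval 0.87 to 2.19), or 2.89-fold, with an adjusted p of 0.00018. Nr4a1 ranged from 8.92 over 11.21 to 12.67 in septa and from 10.18 over 11.89 to 13.09 in vessels, a fitted difference of 0.80 (SE 0.18), or 1.74-fold, with an adjusted p of 0.000211. Within single mice the direction was steady for both, since each was higher in the vessel array in 32 of 35 mice with both tissues.

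Jun went the other way. Its septa values ran from 8.56 over a median of 9.76 to 11.25, and its vessel values from 7.72 over 8.96 to 10.49, with a fitted difference of -0.73 (SE 0.15), or 1.65-fold, and an adjusted p of 8.2e-05. It was lower in the vessel array in 26 of 35 mice. Controls at 3 months were less regular, with Jun higher in the vessel array in 3 of 4 knockout and 2 of 3 wild-type mice. Their mean differences were still below 0, at -0.13 (SD 0.85) and -0.54 (SD 1.56). In each other group it was higher in the vessel array in 0 to 2 mice. Zfp36 ran from 10.02 over 11.23 to 12.45 in septa and from 9.32 over 10.87 to 12.08 in vessels, a fitted difference of -0.44 (SE 0.13), or 1.35-fold, with an adjusted p of 0.00525, and 27 of 35 mice were lower in the vessel. These 4 calls held in the fit and all 85 alternatives, with differences of 1.42 to 1.64 for Fosb, 0.75 to 0.85 for Nr4a1, -0.77 to -0.66 for Jun and -0.50 to -0.40 for Zfp36.

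The other 6 genes did not pass. The difference was 0.33 (95% interval -0.13 to 0.79, adjusted p 0.313 by limma) for Egr1, 0.36 (-0.11 to 0.83, adjusted p 0.272) for Fos and 0.72 (SE 0.37, adjusted p 0.139) for Junb. It was 0.25 (-0.42 to 0.92) for Ier2, -0.16 (-0.59 to 0.27) for Btg2 and -0.26 (-1.001 to 0.49) for Atf3. With the mouse as a fixed factor, which uses the pairing for each gene, Egr1 also passed, at 0.34 and an adjusted p of 0.0126 by limma. The leucine zipper factors Fosb, Junb, Fos, Atf3 and Jun therefore had values of 1.53, 0.72, 0.36, -0.26 and -0.73 in the same contrast. The intervals of Fosb and Jun did not overlap. Smooth muscle markers were higher in vessels (5 of 5 called, median 6.14), and type 1 pneumocyte (5 of 5, median -2.41), capillary endothelium (4 of 4, median -1.56) and neutrophil markers (4 of 4, median -3.19) were lower. The part of these cells in the differences was not tested.

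**Figure D2:**
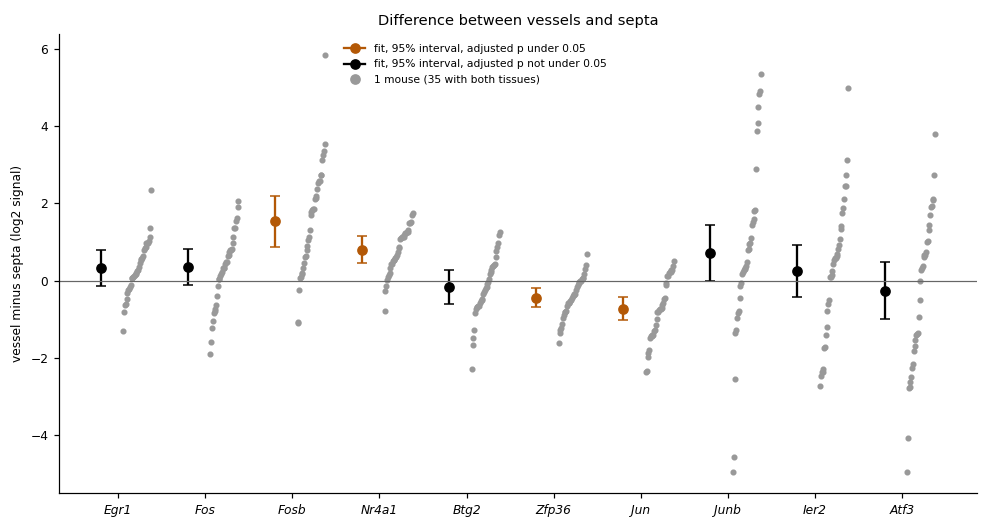
Vessel minus septa log2 signal for each gene, as the fitted difference with its 95% interval (large points, orange where the adjusted p was under 0.05) and as the difference in each of 35 mice (small points, in rising order). Fosb and Nr4a1 lie above 0 in 32 of 35 mice, and Jun and Zfp36 below 0 in 26 and 27.

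Other members of the response are given by class in the same contrast, where 28.9% of all genes were called (12.7% higher, 16.2% lower). Of 21 other immediate early transcription factors, 7 were called higher and 6 called lower in vessels, or 13 of 21 against 28.9% of all genes, and 11 of 21 differences were above 0 (median 0.00). Egr3 (3.24, adjusted p 4.79e-14), Nr4a3 (1.83, adjusted p 3.26e-05), Myc (1.46, adjusted p 2.79e-05) and Nr4a2 (1.22, adjusted p 0.00588) had the largest differences, so each member of the Nr4a family was higher in vessels. Of 21 feedback regulators and RNA decay genes, 1 was called higher and 12 called lower, where 12.7% and 16.2% of all genes were, and 19 of 21 lay below 0, with a median of -0.55 against 0.02 over all genes. The phosphatases Dusp2 (-2.58, adjusted p 1.54e-08) and Dusp6 (-1.26, adjusted p 1.87e-15), which switch off MAP kinases, and Ier3 (-1.77, adjusted p 4.41e-08) were lower, and the stress sensor Gadd45g (1.82, adjusted p 3.99e-13) was higher. Of 15 measured upstream factors 1 was called higher and 6 called lower, and 11 lay below 0, with Creb1 at -1.06 (adjusted p 0.000946), the ternary complex factor Elk3 at -1.04 (adjusted p 1.07e-11), and the kinases Mapk9 and Mapk14 at -0.90 and -0.78 (adjusted p 0.00269 and 0.0378). Of 9 measured secreted early genes, the matrix protein Ccn2 (1.42, adjusted p 4.11e-18) and Thbs1 (0.56, adjusted p 0.0395) were higher and the growth factor Hbegf (-1.84, adjusted p 5.51e-06) was lower, which were the 3 calls of that list. Among 9 measured heat shock genes Hspb1 was called higher (0.57), and Dnajb1 (-0.63) and Hspa8 (-0.21) were called lower. The secreted and heat shock lists were called at about the share of all genes, in both directions.

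A mouse that was high in septa tended to be high in vessels. Over the 35 mice with both tissues, Pearson's r after the group means were subtracted was 0.83 for Egr1, 0.79 for Nr4a1, 0.75 for Fos, 0.73 for Btg2, 0.62 for Fosb and 0.61 for Zfp36. It was lower for Ier2 (0.34), Atf3 (0.31), Jun (0.28) and Junb (-0.10). The median over the 10 genes was 0.62, beside a median of 0.03 and a 95th percentile of 0.37 over all 20710 genes, and 0.05 and 0.39 over those at least as bright. The share of genes at or above the value of Egr1 in this measure was 0.00483%, which is Egr1 itself. For Egr1 Spearman's rho was 0.81, and r was 0.80 without the 2 mice farthest from the median in septa. The 2 arrays of a pair share the mouse and its handling. These correlations are a description, since the genes were chosen with them known.

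Single mice show what the correlation rests on. Mouse 30, a wild-type control at 8 months, had the highest Egr1 of all septa arrays (14.31) and of all vessel arrays (14.51), and also the highest Fos, Nr4a1 and Btg2 in septa (12.42, 12.67 and 11.47). Mouse 13, a smoke-exposed knockout at 3 months, had the highest Fos of its group in both tissues (11.42 in septa, 12.78 in vessels), where the other 4 mice lay at 7.54 to 9.38 and 7.48 to 8.48. Its Fosb was the highest of all septa arrays, at 12.76. Mouse 17, a smoke-exposed knockout at 8 months, stood above the rest of its group in Egr1 in both tissues, at 13.44 against 10.79 to 12.05 in septa and at 14.41 against 10.59 to 12.04 in vessels. At the low end, mouse 11 had 10.03 and 10.31 for Egr1, with Fos at 7.54 and 8.29.

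Within the Xist classes the relation was seen for some of the genes. Among mice with low Xist in both tissues (n = 20 after single-mouse groups fell out), r was 0.75 for Egr1, 0.77 for Nr4a1, 0.76 for Btg2, 0.58 for Fos, 0.57 for Zfp36 and 0.54 for Fosb. It was 0.39 for Jun, 0.10 for Atf3, -0.11 for Ier2 and -0.39 for Junb. The median over the 10 genes was 0.55, beside a median of 0.04 and a 95th percentile of 0.48 over all genes. Among those with high Xist in both (n = 9) the median was 0.69, which is the 95th percentile over all genes at this number of mice, and Egr1 rested on few mice there, with an r of 0.71 that became -0.09 without the 2 farthest. Over both Xist classes without mice 7 and 29, the median over the 10 genes was 0.61 (n = 33).

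**Figure D3:**
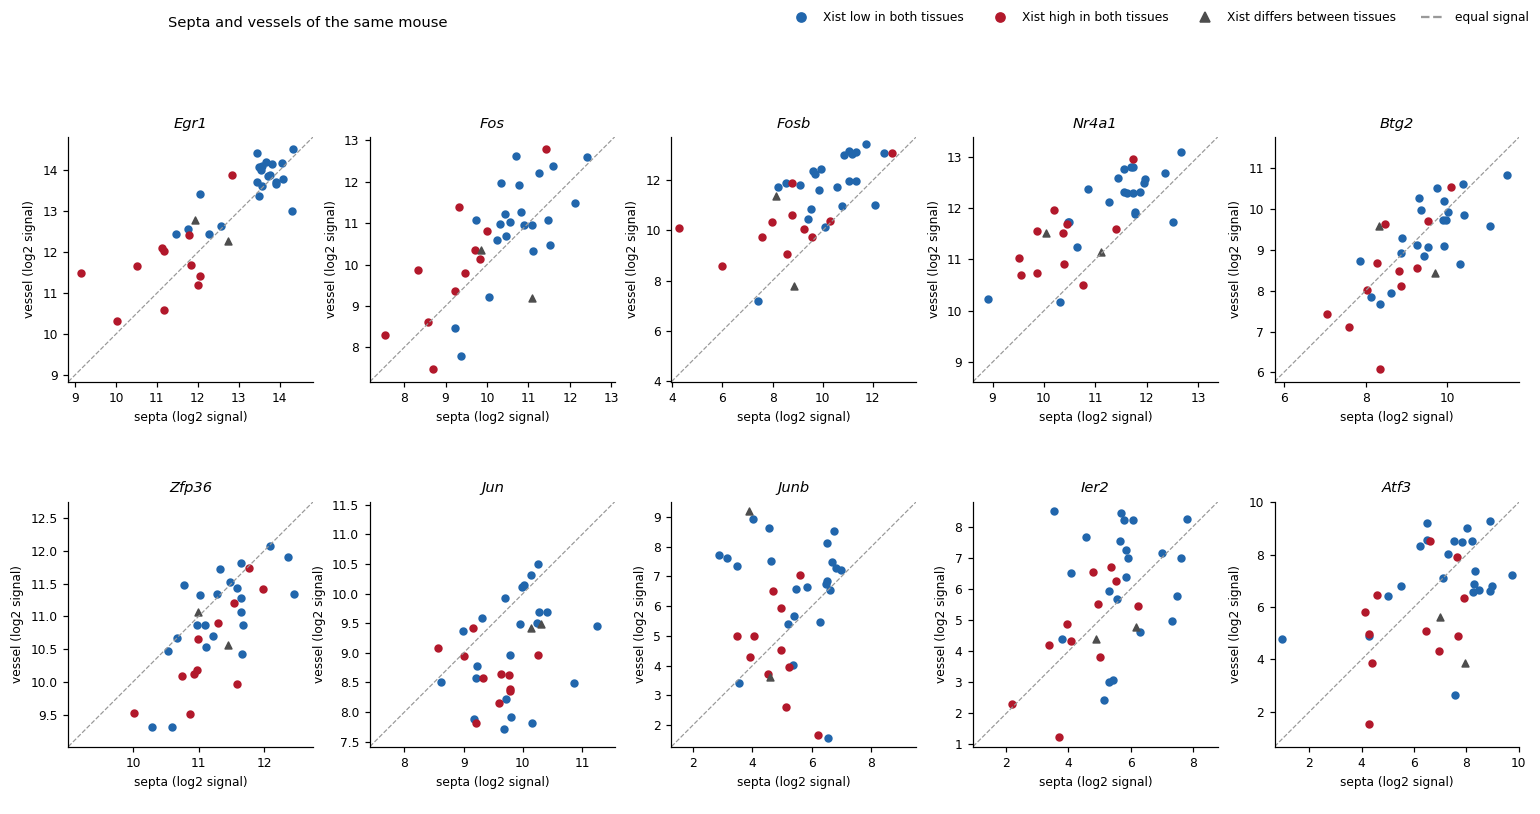
Septa signal (horizontal axis) against vessel signal (vertical axis) of the same mouse, both as log2 signal, 1 point for each of 35 mice and 1 panel for each gene, with colours for the Xist class and a dashed line of equal signal. Egr1, Fos, Nr4a1 and Btg2 lie along a rising band, Fosb and Nr4a1 mostly above the line, and Junb shows no band.

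Within a tissue the genes moved together from array to array, also as a description. After subtracting group means all 45 pairs of the 10 genes had a positive r in septa, with a median of 0.52 (n = 39), and in vessels, with a median of 0.49 (n = 37). Pairs taken from 2000 genes at even steps of signal had a median of 0.00 in both tissues and a 95th percentile of 0.32. Fos and Btg2 reached 0.86 in septa, and Fos and Zfp36 0.91 in vessels. Nr4a1 had the highest median r with the other 9 genes in both tissues, 0.67 in septa and 0.76 in vessels. Jun stood apart in vessels, where its r with the others lay between 0.20 and 0.32, and Junb in septa, with a median of 0.27. With the arrays of mouse 25 averaged the vessel median was 0.50 over 36 mice, and all 45 pairs were above 0. Within arrays with low Xist signal the median over pairs was 0.55 in septa (n = 24) and 0.50 in vessels (n = 23), with 43 and 44 of 45 pairs above 0. Within those with high Xist signal it was 0.44 in septa (n = 12), with 34 of 45 pairs above 0 and a lowest r of -0.46, and 0.67 in vessels (n = 9), with 41 of 45 above 0. Both lay below the 95th percentile of the other pairs in that class, 0.60 and 0.68. The arrays of a tissue share the method of amplification.

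**Figure D4:**
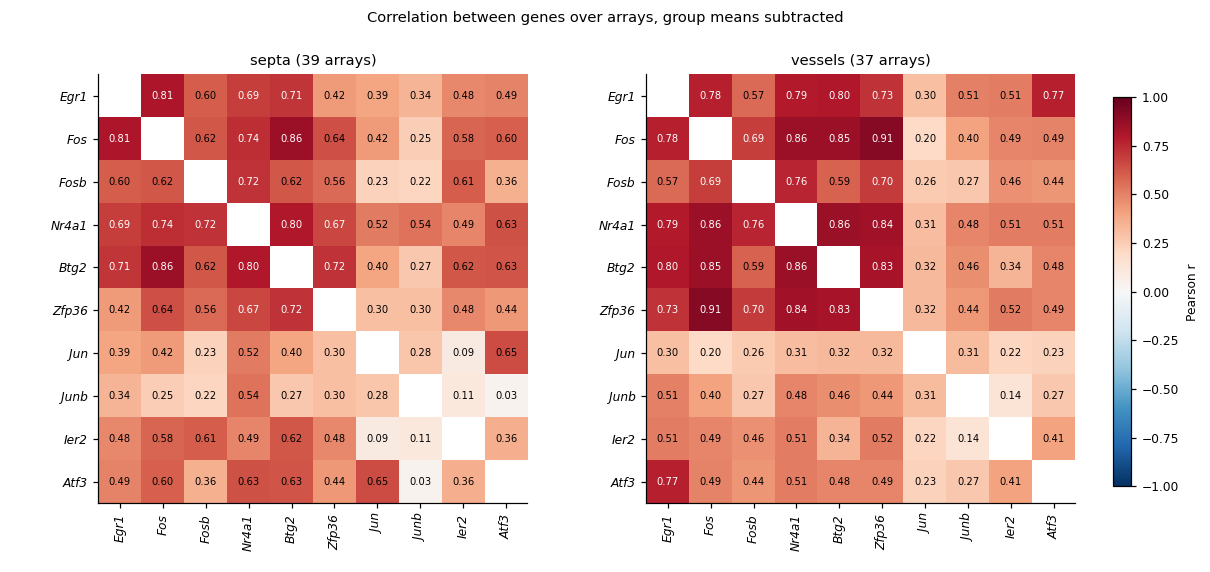
Pearson correlation of each pair of genes over arrays after group means were subtracted, in septa (left) and vessels (right), with colour from -1 to 1 and the value in each cell. All 45 pairs are above 0 in both tissues, with Fos and Zfp36 at 0.91 in vessels and the row of Jun pale there (0.20 to 0.32).

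Outside the 10 genes, Ccn1, a secreted matrix protein of the early class, was most like their mean in both tissues, with r of 0.81 in septa and 0.88 in vessels. The mean of the 10 was taken over standardised values, and 14498 other named genes were ranked. In septa the next were Egr2 (0.77), Nr4a3 (0.75), Nfkbiz (0.71), Thbs1 (0.71), Id3 (0.70), Coq10b (0.66), Mat2a (0.65), Dusp1 (0.65) and Adamts1 (0.59). In vessels they were Nr4a2 (0.75), Dusp1 (0.75), Pms1 (0.73), Errfi1 (0.70), Csrnp1 (0.68), Sgk1 (0.68), Midn (0.67), Sik1 (0.67) and Cebpb (0.67). Ccn1 and Dusp1 were among the 10 most alike in both, and the 99th percentile of all genes was 0.41 in septa and 0.45 in vessels. Pms1 had a mean signal of 2.82, below the receptor background, so its rank carries little. The median r of the lists was 0.28 and 0.37 for other early transcription factors, 0.24 and 0.29 for feedback regulators, 0.39 and 0.40 for secreted early genes, 0.20 and 0.11 for heat shock genes and 0.03 and 0.06 for upstream factors, in septa and vessels.

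Arrays with high Xist signal had lower values for most of the genes. In septa Egr1 ran from 9.14 over a median of 11.48 to 12.84 in the 14 such arrays, and from 11.46 over 13.55 to 14.31 in the other 25, of which 18 were above every array of the first class. In vessels it ran from 10.31 over 11.67 to 13.87 (n = 12) and from 12.43 over 13.70 to 14.51 (n = 25). In both tissues the median of Egr1 was lower in the class with high Xist signal in 6 of 6 groups that held both classes. The same held in 6 of 6 septa groups for Fos (overall medians 9.40 and 10.78) and Ier2 (4.76 and 5.78) and in 6 of 6 vessel groups for Nr4a1 (11.33 and 12.29), Btg2 (8.46 and 9.58) and Atf3 (5.02 and 6.90). It was least regular for Jun, in 4 of 6 septa and 3 of 6 vessel groups. The classes were seen in the data and are not groups of the study, so no test was made.

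The smoke comparisons are given as values only, because the genes were chosen with them in view. The genes moved together over arrays, so counts of genes in the same direction are not counts of separate observations. In knockout septa at 8 months all 10 genes were lower after smoke, with a median difference of -1.44, against -0.04 over all genes. Egr1 was 14.28, 12.74, 13.49, 13.66 and 13.71 in control arrays and 11.18, 13.44, 11.18, 10.79 and 12.05 in smoke arrays, so 1 smoke array, that of mouse 17, lay among the controls. The difference was -1.85 (SE 0.63). Fos was 12.11, 11.08, 11.51, 10.82 and 10.90 in controls and 9.46, 10.71, 9.99, 9.00 and 9.82 after smoke, without overlap, a difference of -1.49 (SE 0.53).

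Btg2 did not overlap either, with 11.05, 9.71, 10.33, 9.93 and 9.92 in controls and 8.04, 9.30, 9.54, 9.02 and 8.82 after smoke, a difference of -1.24 (SE 0.50). Fosb differed most, at -2.66 (SE 0.92), with controls at 12.09, 8.88, 10.58, 9.42 and 10.86 and smoke arrays at 9.57, 9.70, 7.57, 7.41 and 4.27. Fos and Btg2 were the 2 genes of 10 without overlap, which held for 1.06% of all genes in this comparison. In each of the other 7 smoke comparisons 0 of the 10 were without overlap, beside 0.7% to 1.6% of all genes. Atf3 differed by -2.35, Ier2 by -1.59, Nr4a1 by -1.40, Jun by -0.63, Zfp36 by -0.46 and Junb by -0.33. In the same comparison 19 of 21 other early transcription factors were below 0 (median -0.57), as were 15 of 21 feedback regulators (median -0.34) 6 of 9 secreted early genes (median -1.04) and 8 of 9 heat shock genes (median -0.20), and 0 of these passed the test.

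In this comparison the Xist classes moved with smoke: 0 of 5 control and 4 of 5 smoke arrays had high Xist signal, and the fifth smoke array was that of mouse 17. With the Xist class as a term in the fit, an alternative chosen after seeing the data, the median was -0.59, with Egr1 at -0.53, Fos at -0.52 and Fosb at -1.72. Without mice 7 and 29, and without that term, the median was -1.55. Marco and 4 other alveolar macrophage markers were all higher after smoke (median 1.64, array means 7.03 to 9.42 in controls and 8.24 to 11.19 after smoke). Of these, Ctsk had a mean below the receptor background over the septa arrays. The 4 neutrophil markers were all lower (median -0.60, array means 10.95 to 12.70 and 10.44 to 12.51). No marker of either list passed the test, and the part of these cells in the result was not tested.

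Knockout vessels at 3 months were the other comparison with all 10 genes lower after smoke, with a median of -1.06. Fos was 11.91, 9.37, 10.96 and 9.22 in control arrays and 8.29, 7.48, 12.78, 8.48 and 7.78 after smoke. The smoke array of mouse 13 was the highest of both groups and the other 4 were lower than every control, a difference of -1.40 (SE 0.78). Ier2 differed most, at -3.13 (SE 1.18), from 7.68, 5.53, 7.54 and 6.53 to 1.23, 4.20, 6.25, 4.38 and 2.41, where 2 smoke arrays were below the receptor background. High Xist signal was present in 1 of 4 control and 3 of 5 smoke arrays, and with the Xist term the median was -0.66. Without the smoke array of mouse 13 the median was -1.61, without that of mouse 11 it was -0.64, and without control replicates 1 or 3 it was -0.66 or -0.68. Heat shock genes were lower too, 8 of 9 with a median of -0.49. All 5 heart muscle markers were higher in this comparison (median 2.38, array means 4.81 to 5.74 in controls and 4.29 to 11.96 after smoke), and their part was not tested.

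At 8 months the wild-type values also lay below 0, and at 3 months above it. The median difference was -0.51 in wild-type septa (8 of 10 genes lower) and -0.66 in wild-type vessels (9 of 10 lower) at 8 months, where high Xist signal was present in 1 of 5 control against 3 of 5 smoke septa arrays and 0 of 5 against 3 of 4 vessel arrays. With the Xist term these medians were -0.09 and 0.08, so the vessel value changed sign, and without mice 7 and 29 they were -0.85 and -0.77. At 3 months the medians were 0.55 in wild-type septa (8 of 10 higher) and 0.32 in wild-type vessels (9 of 10 higher), with 1 of 4 control against 0 of 5 smoke septa arrays and 1 of 5 against 0 of 5 vessel arrays in the class with high Xist signal. With the Xist term they were 0.28 and 0.06. All 4 values depended on single arrays. Wild-type septa at 3 months had a median of -0.01 without control replicate 2 and 0.95 without control replicate 3. At 8 months the septa median was -0.09, -0.10 and -0.20 without smoke replicate 2 and control replicates 1 and 5, and -0.79, -0.85 and -0.86 without control replicates 3 and 4 and smoke replicate 3. Wild-type vessels at 3 months had 0.08, 0.19 and 0.63 without control replicate 3, smoke replicate 2 and control replicate 1. At 8 months the vessel median was -0.18, -0.34 and -0.39 without smoke replicate 4 and control replicates 4 and 3, and -1.09 without smoke replicate 3. The heat shock genes lay on the same side of 0: at 3 months 8 of 9 were higher in wild-type septa (median 0.60) and 7 of 9 in wild-type vessels (median 0.43), and at 8 months 0 of 9 (median -0.14) and 1 of 9 (median -0.27). None of them passed, and their part was not tested.

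Egr1 illustrates the wild-type septa at 3 months, with 12.44, 11.78, 13.80 and 13.45 in controls and 14.09, 13.48, 13.91, 13.57 and 13.90 after smoke, a difference of 0.92 (SE 0.67) with smoke arrays within a narrow range. Jun was 9.07, 8.56, 10.13 and 10.15 in controls and 9.78, 10.24, 11.25, 10.41 and 10.01 after smoke, a difference of 0.86 (SE 0.36). The groups overlapped for both genes. In knockout septa at 3 months the median was -0.41 (8 of 10 lower), and in knockout vessels at 8 months it was -0.30 (9 of 10 lower). With the Xist term these were -0.26 and 0.29, another change of sign. When 1 array was left out, the septa median lay between -0.77 (without smoke replicate 3) and -0.22 (without smoke replicate 1), with control replicates 1 and 3 giving -0.70 and -0.22. The vessel median lay between -0.90 (without smoke replicate 4, mouse 17) and -0.12 (without smoke replicate 3). It was -0.65 without the library labelled control replicate 4, whose Noxo1 and Xist signals stood apart, and -0.14 to -0.16 without control replicates 1 or 5 or smoke replicate 2.

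Over all genes, smoke called 1 gene in wild-type septa at 3 months (0.00483% of those tested, not one of the 10) and 0 genes (0.0%) in the other 7 comparisons by limma, where 609 to 1357 genes had an unadjusted p under 0.05. The comparison of smoke between the genotypes had medians over the 10 genes of -0.85 and -0.64 in septa at 3 and 8 months and of -1.28 and 0.17 in vessels. With the Xist term they were -0.43, -0.37, -0.92 and 0.09. Without mice 7 and 29 the values at 8 months were -0.59 in septa and 0.41 in vessels. The vessel value at 8 months had no stable sign, from -0.11 without wild-type smoke replicate 4 to 0.62 without knockout smoke replicate 2, and the septa value at 8 months was -0.38 without wild-type control replicate 2 and -0.42 without knockout control replicate 1. At 3 months 0 of 9 heat shock genes were above 0 in septa (median -0.92) and 1 of 9 in vessels (median -0.84). No gene of the array passed in any of these 4 contrasts, with 650 to 1249 genes at an unadjusted p under 0.05.

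**Figure D5:**
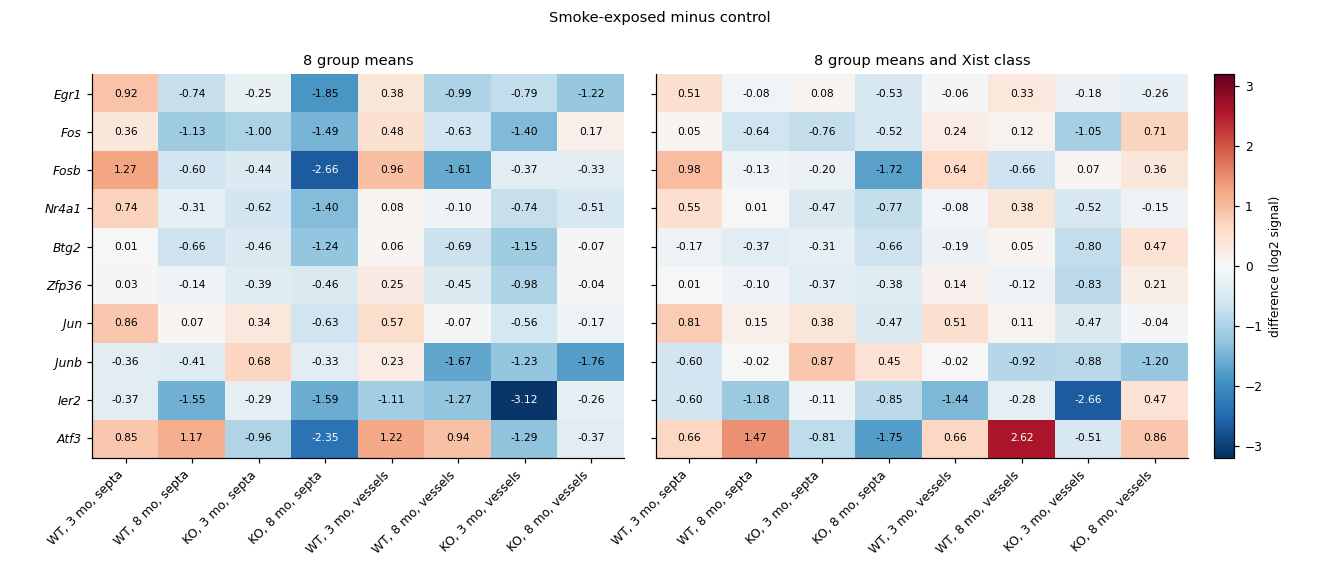
Smoke-exposed minus control log2 signal for the 10 genes (rows) in the 8 comparisons (columns, WT wild-type, KO Noxo1 knockout, mo months), fitted with group means (left) and with the Xist class added (right), coloured from blue (lower) to red (higher). The column of knockout septa at 8 months is below 0 for all 10 genes on the left, with a median of -1.44, and for 9 of 10 on the right, with a median of -0.59.

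The genotypes were compared over exposures and times. No member passed in either tissue, where 0 of 20710 genes (0.0%) were called by limma and 825 genes in septa and 1007 in vessels had an unadjusted p under 0.05. All 10 genes were lower in knockout in both tissues, with medians of -0.27 and -0.34 beside 0.00 and -0.02 over all genes. The 10 genes moved together from array to array and the tissues share mice, so these directions are not separate observations. Egr1 was at -0.60 (95% interval -1.23 to 0.02, adjusted p 1.0) in septa and -0.51 (-1.14 to 0.12, adjusted p 0.979) in vessels. Junb was at -0.92 in septa, with an unadjusted p of 0.0224 and an adjusted p of 1.0, and at -0.24 in vessels. High Xist signal was present in 9 of 20 knockout and 5 of 19 wild-type septa arrays and in 8 of 18 and 4 of 19 vessel arrays. With the Xist term 9 and 8 of 10 genes were lower, with medians of -0.18 and -0.15. Without mice 7 and 29 the medians were -0.30 and -0.36. The septa median was -0.42 and -0.43 without knockout smoke replicate 3 at 3 months and wild-type smoke replicate 2 at 8 months, and -0.17 to -0.18 without wild-type control replicate 3 at 3 months, or control replicate 1 or smoke replicate 1 at 8 months. The same fit called 78.0% of simulated shifts of 2 log2 units in vessels and 96.5% in septa. The largest differences of the 10 genes were smaller, -0.92 in septa (Junb) and -0.73 in vessels (Fos). Recovery of shifts of that size was not tested.

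Control mice were compared between 8 and 3 months. Here too the 10 genes are not separate observations, since they moved together over arrays. In septa all 10 genes were higher at 8 months, with a median of 0.45 beside 0.03 over all genes, but none passed, against 99 genes (0.478%) of those tested by limma (29 without knockout control replicate 3, 38 and 59 without wild-type control replicates 4 and 1, all at 3 months). Fos was at 1.13 (95% interval 0.37 to 1.89, unadjusted p 0.0056, adjusted p 0.202), Ier2 at 1.14 (adjusted p 0.366), Btg2 at 0.83 (adjusted p 0.387) and Zfp36 at 0.46 (adjusted p 0.426). These 4 had an unadjusted p under 0.05, as did 2220 of 20710 genes. The Fos arrays ran from 8.34 to 11.47 at 3 months and from 9.87 to 12.42 at 8 months and overlapped. High Xist signal was present in 3 of 9 control septa arrays at 3 months and 1 of 10 at 8 months, and with the Xist term Fos was at 0.86 and the median at 0.35. Without mice 7 and 29 the median was 0.70. Neutrophil markers were higher at 8 months as well, 4 of 4 with a median of 1.30, of which 3 passed. Their array means ran from 9.51 to 10.92 at 3 months and 11.08 to 12.73 at 8 months in wild-type controls, without overlap, and from 9.07 to 11.89 and 10.95 to 12.70 in knockout controls. All 5 alveolar macrophage markers, with Ctsk below the receptor background in its septa mean, lay above 0 (median 0.64) and none passed. The part of these cells in the result was not tested. Of 21 other early transcription factors, Cebpd, a leucine zipper factor of the acute phase, was higher at 8 months (0.95, adjusted p 0.0102) and the other 20 did not pass.

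In vessels the controls showed no common direction over time, with 5 genes above and 5 below 0 and a median of -0.02, which lay between -0.18 and 0.18 when 1 control array was left out and was 0.21 without mice 7 and 29. The 4 neutrophil markers were above 0 (median 1.59) and none passed. No member passed, against 1 gene (0.00483%) of those tested. Junb had the largest value, 1.48 (95% interval -0.25 to 3.204, adjusted p 0.674), and Zfp36 was at 0.53 (-0.05 to 1.10, adjusted p 0.639). Whether the time difference of septa and vessels differs was not tested.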

How the data were processed

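The authors deposited log2 values, quantile normalized as read from the values themselves (array quartiles differed by at most 0.0024). The submitters' processing notes name limma, without settings, and no source used here states the background correction. RNA was amplified with Ovation PicoSL WTA V2 and labelled with Cy5, per the labels' protocols, and 4 arrays without signal were not analysed by the submitters.

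Of 62976 features 31465 carried 1 symbol, none several and 31511 none. By accession 29050 matched RefSeq, which changed 2933 symbols. Features missing a value on any array (671) were dropped, and the feature with the highest mean stood for each gene. Limma 3.58.1 in R 4.3.3 (eBayes with trend, Benjamini-Hochberg over 20710 genes) was fitted per tissue on 8 group means, with the mouse 25 arrays averaged, and over 76 arrays for vessels against septa, with duplicateCorrelation by mouse (0.0262). The mouse numbers of the labels pair the tissues. Adjusted p values come from limma, and replicates are separate mice except for mouse 25, whose 2 arrays stay apart in the fit over 76 arrays and in correlations over 37 vessel arrays. The fits were tested on simulated data. Python 3.11.15, numpy 2.4.6, scipy 1.17.1, pandas 2.3.3 and matplotlib 3.10.9 made the descriptions.

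The genes named are the 10 members, up to 4 called genes of each list with the largest differences, and the 10 most alike in each tissue. Other genes named, the Xist classes and single mice were chosen after their values were seen. Members and lists were chosen with earlier results of these data known. Alternatives were another quantile normalization, a filter at the 25th percentile, the mean of all probes, array weights, a replicate block, other treatments of the mouse, 1 fit over both tissues, leaving out arrays, and the Xist class.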

Additional observations from a re-analysis of the deposited data

Results flagged for a closer look

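In 160 combinations of gene and group, 8 had 1 array far from the others, judged by its gap to the nearest array over the range of the group. Chance flags about 1 in 20 groups, which is also the share seen here. The array of mouse 13 in smoke-exposed knockout vessels at 3 months stood high for Fos (12.782, next 8.479) and for Zfp36 (11.738, next 9.524). Fosb was high in smoke-exposed knockout vessels at 8 months, replicate 4, which is mouse 17 (12.269, next 10.099). Jun was high in knockout control septa at 3 months, replicate 3 (10.26, next 9.308), Junb in smoke-exposed wild-type septa at 8 months, replicate 3 (6.614, next 5.254), and Atf3 in wild-type control vessels at 3 months, replicate 1 (8.491, next 6.623). Low arrays were replicate 3 of smoke-exposed wild-type septa at 3 months for Fos (9.734, next 10.242) and replicate 2 of wild-type control septa at 8 months for Atf3 (0.975, next 6.972).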

How the results depend on the processing

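With the Xist class as a term, chosen after seeing the data, the median of smoke in knockout septa at 8 months moved to -0.594. Several differences that no fit called changed sign with it. Fos between genotypes in septa went to 0.092, Ier2 and Atf3 between genotypes in vessels to 0.117 and 0.081, Fosb over time in septa to -0.005 and Egr1 over time in vessels to -0.15. Fosb over time in vessels was 0.048 with the replicate block and 0.134 without mice 7 and 29. When 1 array was left out, values ran from -0.375 to 0.056 for Ier2 between genotypes in vessels. Over time in septa they ran from -0.078 to 0.564 for Fosb and from -0.161 to 0.899 for Atf3. Over time in vessels they ran from -0.144 to 0.292 for Egr1, -0.636 to 0.109 for Fosb, -0.321 to 0.043 for Nr4a1 and -0.065 to 0.409 for Btg2. The cause was not tested.

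The replicate numbers of the labels do not mark mice throughout, since 23 of 35 mice have another number in vessels than in septa and 12 have the same. Arrays with the same number in different groups correlated at 0.012 in septa and 0.024 in vessels after group means were subtracted, against -0.003 and -0.006 for others. With the replicate block 4 members were called between tissues and 0 elsewhere, as without it. The count of genes called over time was 99 in control septa and 5 in 1 fit over both tissues, and it was 29, 59 and 38 without knockout control replicate 3 or wild-type control replicates 1 or 4 at 3 months. In control vessels it was 1, with 0 to 7 when 1 array was left out and 236 in the fit over both tissues, and smoke called 0 to 34 genes in that fit. Low signals limit Junb, Ier2 and Atf3.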
